A study of Mus musculus with 7 samples.

Results

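The collagen genes were described in islet RNA of 7 mice on day 15 of pregnancy. Members were the rows of the gene table whose name, read in capitals, is COL, a number, A and a number, which gave 44 of the 34082 genes listed. By type they were 11 fibrillar collagens, 8 basement membrane collagens and 25 other collagens. The 19 members with a mean TPM (a length-corrected share of the transcripts of a library) of at least 0.5 were tested, and the 25 others were described only. Next to that threshold, COL14A1 had a mean of 0.534 TPM on the inside and COL5A3 a mean of 0.485 TPM on the outside.

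The study compared 4 βPrlR+/- mice with 3 Prlr+/- mice, with 1 library per mouse. The βPrlR+/- mice carried a floxed Prlr (prolactin receptor) allele and CreER, a tamoxifen-dependent Cre, under the Pdx1 promoter, which is active in β-cells and during development in the whole pancreas. The Prlr+/- mice lacked an allele in every tissue, collagen-producing cells included. Both groups were C57BL/6 dams mated to wild-type males, both carried a Prlr deletion, and no wild-type islets are compared here. Only the βPrlR+/- mice had received tamoxifen, so that drug, Cre and genotype cannot be told apart. In the labels the dams were mated at an age of 3 to 4 months. The methods give the age at study, not at mating. They describe the deletion in β-cells as heterozygous, the labels as homozygous. No source explains the word CkoWt in the titles of the βPrlR+/- libraries. Islets were freed with collagenase and picked by hand, 100 to 200 per mouse. According to the methods, picked islets were then cultured overnight in medium with serum. Prlr itself was at 38.4 to 55.6 scaled TPM in islets of βPrlR+/- mice and 35.05 to 51.1 in those of Prlr+/- mice, ranges that overlapped. Scaled TPM is the deposited TPM divided by a size factor per mouse, since the insulin genes held 46.1% to 58.9% of all TPM. Whether the animals shared litters is not given. The methods state the reads per library, but TPM does not keep the number of reads behind a value. In such bulk RNA, fewer cells of a type and less RNA per cell cannot be told apart.

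Collagens are secreted proteins of 3 chains wound into a triple helix. Fibrillar collagens such as types I and III form the fibrils of the interstitial matrix and are made mainly by fibroblasts and stellate cells. Type IV collagen forms the sheet of basement membranes, and in mouse islets the capillary wall and its basement membrane lie directly against the endocrine cells. Where a type has different chains, these are encoded by separate genes. Those of type IV lie in pairs transcribed away from each other from a shared promoter region.

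The type IV pair Col4a1 and Col4a2 held the highest collagen levels here, and the type VIII pair Col8a1 and Col8a2 was lower in every Prlr+/- mouse, so the promoters of these genes are shown. Each window runs from 250 bases before to 50 bases after the gene start, 5′ to 3′ on the strand of the gene, from RefSeq on GRCm38.p6. Windows matched 35 of the 44 members, 17 of them tested. The build behind the deposited values is not given in the sources used here. Col4a1 lies at chr8:11312777-11313076 on the minus strand and Col4a2 at chr8:11312555-11312854 on the plus strand. Their annotated starts are 21 bases apart on opposite strands, so placed that the first bases of the 2 genes overlap. Capitals mark the 78 bases that both windows contain, each being the reverse complement of the other.
Col4a1: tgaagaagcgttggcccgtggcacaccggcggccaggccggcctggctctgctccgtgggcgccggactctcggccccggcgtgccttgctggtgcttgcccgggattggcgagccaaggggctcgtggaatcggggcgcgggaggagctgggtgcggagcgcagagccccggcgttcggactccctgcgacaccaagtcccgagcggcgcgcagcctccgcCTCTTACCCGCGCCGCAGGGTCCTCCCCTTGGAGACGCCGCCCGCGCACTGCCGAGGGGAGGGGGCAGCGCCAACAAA
Col4a2: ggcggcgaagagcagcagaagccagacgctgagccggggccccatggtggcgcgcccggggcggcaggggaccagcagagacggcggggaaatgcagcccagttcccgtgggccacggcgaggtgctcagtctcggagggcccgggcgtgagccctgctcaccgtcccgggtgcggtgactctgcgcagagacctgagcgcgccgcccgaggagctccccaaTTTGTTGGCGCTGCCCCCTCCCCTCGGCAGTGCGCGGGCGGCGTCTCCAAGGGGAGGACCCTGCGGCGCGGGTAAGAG
The type VIII windows lie on different chromosomes, Col8a1 at chr16:57754688-57754987 on the minus strand and Col8a2 at chr4:126286544-126286843 on the plus strand. Capitals mark GGGCGG, the core of a GC box, or its complement on the other strand.
Col8a1: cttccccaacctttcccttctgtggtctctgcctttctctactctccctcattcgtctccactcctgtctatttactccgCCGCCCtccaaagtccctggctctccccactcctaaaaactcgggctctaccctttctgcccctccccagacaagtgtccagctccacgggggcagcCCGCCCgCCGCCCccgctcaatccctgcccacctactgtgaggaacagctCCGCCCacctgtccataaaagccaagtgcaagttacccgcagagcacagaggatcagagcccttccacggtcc
Col8a2: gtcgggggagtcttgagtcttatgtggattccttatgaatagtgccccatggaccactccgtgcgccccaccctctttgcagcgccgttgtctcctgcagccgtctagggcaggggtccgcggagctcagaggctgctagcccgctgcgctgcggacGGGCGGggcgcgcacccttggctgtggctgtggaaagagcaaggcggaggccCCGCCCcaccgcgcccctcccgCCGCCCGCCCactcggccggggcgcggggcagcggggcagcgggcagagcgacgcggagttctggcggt
Counting both strands and overlapping matches, GGGCGG was found 1 time in the Col4a1 window, 3 times in Col4a2, 4 times in Col8a1 and 4 times in Col8a2, and at least once in 35.7% of 32851 promoter windows of this length. CCAAT was found 1 time in the Col4a1 and 1 time in the Col4a2 window and in neither type VIII window, against 37.4% of all windows. TATAAA was in none of the 4, against 13.6% of all windows.

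Type IV chains were the most abundant collagen transcripts of the islets. Summed over all 44 genes, collagen was 77.8, 55.0, 79.8 and 67.1 scaled TPM in mice 1 to 4 of the βPrlR+/- group and 58.4, 77.2 and 64.5 in mice 1 to 3 of the Prlr+/- group. The ranges of the groups overlapped, and the lowest sum was that of a βPrlR+/- mouse. COL4A1 and COL4A2 together made up 41.5% to 48.02% of the sum in each mouse, and with COL6A6 and COL13A1 61.5% to 69.9%. By type, the basement membrane genes held 48.2% to 52.5%, the other types 35.9% to 41.4% and the fibrillar genes 8.37% to 12.3%. TPM is per length, so levels of different genes can be set side by side, and 4 genes had a mean of at least 5 scaled TPM, 12 of at least 1 and 11 of under 0.1. In the order of the means, COL4A1 lay above COL4A2 in all 7 mice with no overlap of their ranges. Every other pair of neighbours in that order overlapped. Of the members, 42 were above 0 in every mouse, and the exceptions were the cartilage genes COL2A1, listed at 0 in 1 mouse, and COL9A1, listed at 0 in 3.

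**Figure D1:**
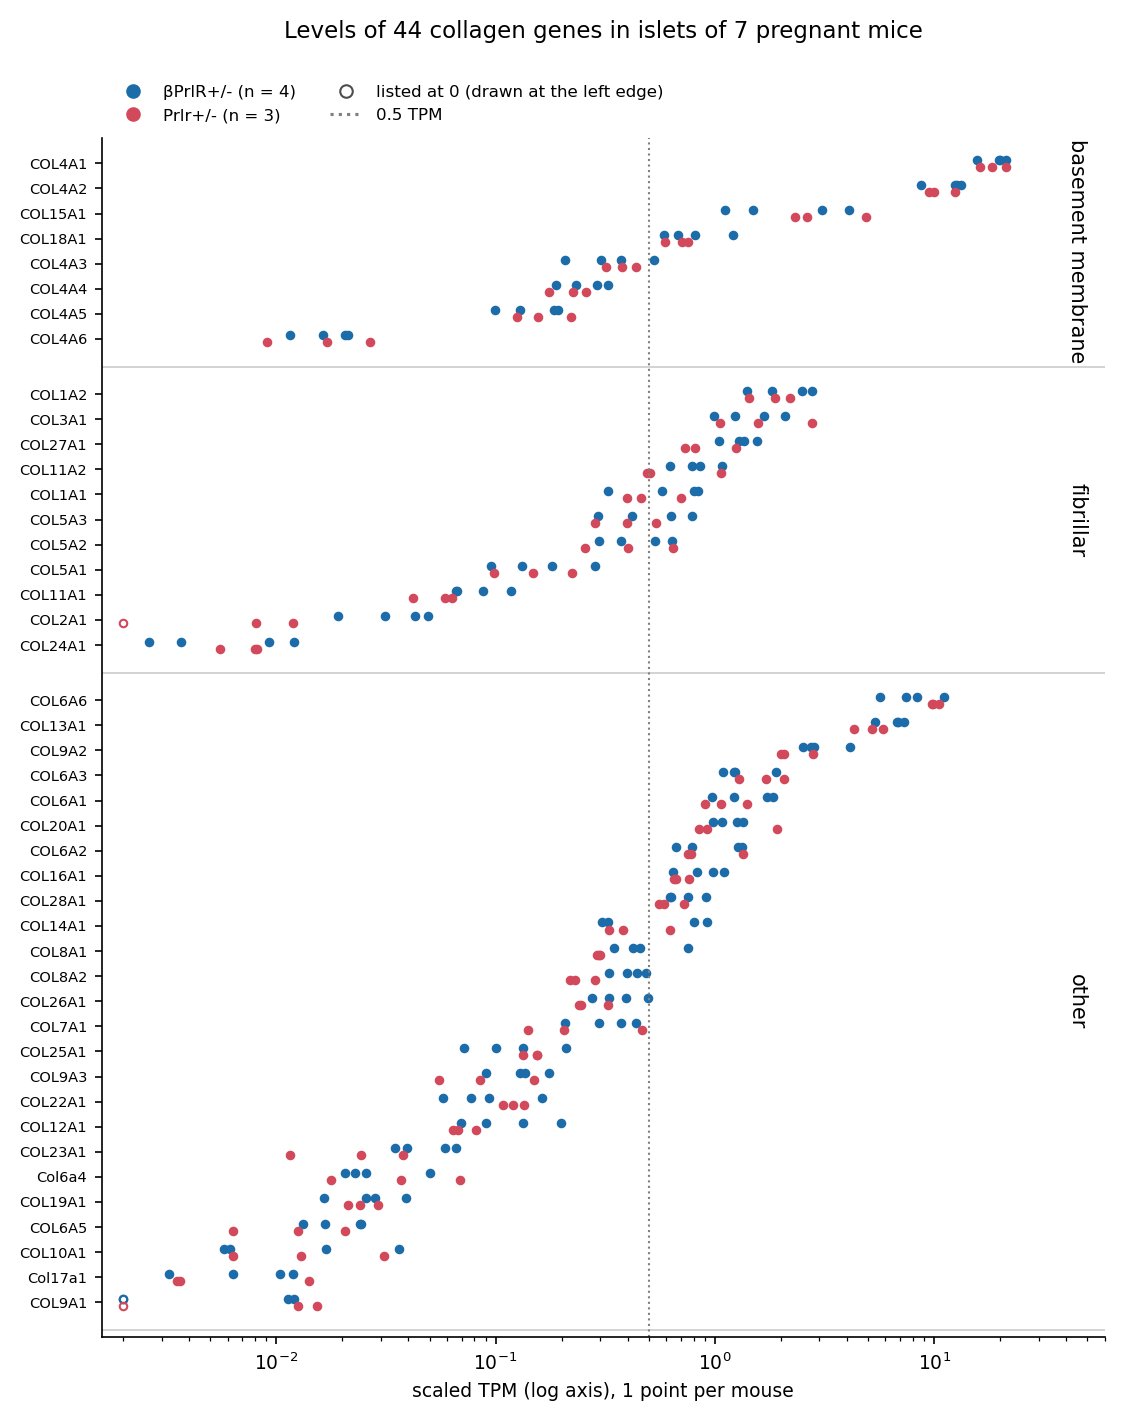
Scaled TPM of each collagen gene on a log axis, 1 point per mouse, grouped by type and ordered by mean, with values of 0 drawn open at the left edge and a dotted line at 0.5. The type IV genes COL4A1 and COL4A2 lie highest, the fibrillar genes below 5 in every mouse, and the colours overlap for most genes.

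The label of the set as stromal was checked against marker genes of the cell types. Of 12 fibroblast and stellate cell markers, 3 reached a mean TPM of 0.5, PDGFRB, DPEP1 and CD248, with means of 3.09, 1.10 and 0.919 scaled TPM, while PDGFRA had a mean of 0.102. The leading markers of vessels were higher. All 12 endothelial and 9 of 10 pericyte and smooth muscle markers were tested, led by PLVAP, a protein of fenestrated endothelium (81.6 scaled TPM), and RGS5, a signalling regulator of pericytes (37.6). The members are called collagen genes here.

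No collagen gene passed the test between the groups. With limma on log2(scaled TPM + 1) and Benjamini-Hochberg adjustment over 14840 genes, 0 of 19 tested members had an adjusted p under 0.05, against 0.0674% of all genes tested. At an unadjusted p under 0.05 there was 1 of 19, against 4.52% of all genes. The log2 difference, Prlr+/- minus βPrlR+/-, was below 0 for 14 of 19 members (73.7%) and for 48.3% of all genes tested. The median was −0.12 for the 5 tested fibrillar genes, −0.07 for the 4 basement membrane genes and −0.11 for the 10 others, against 0.0042 for all genes. With TPM as deposited the median of all genes was −0.12, those of the types were −0.19, −0.17 and −0.16, and 3 of 19 members (COL13A1, COL9A2 and COL27A1) had an unadjusted p under 0.05, against 7.93% of all genes tested. When the pseudocount was set to 0.1, which gives low genes a wider scale, the medians of the types were −0.21, −0.09 and −0.22, and single low genes moved with it, such as COL1A1 to −0.21, COL14A1 to −0.25 and COL16A1 to −0.30. The groups overlapped for every tested member (0 of 19, against 4.95% of all genes tested).

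**Figure D2:**
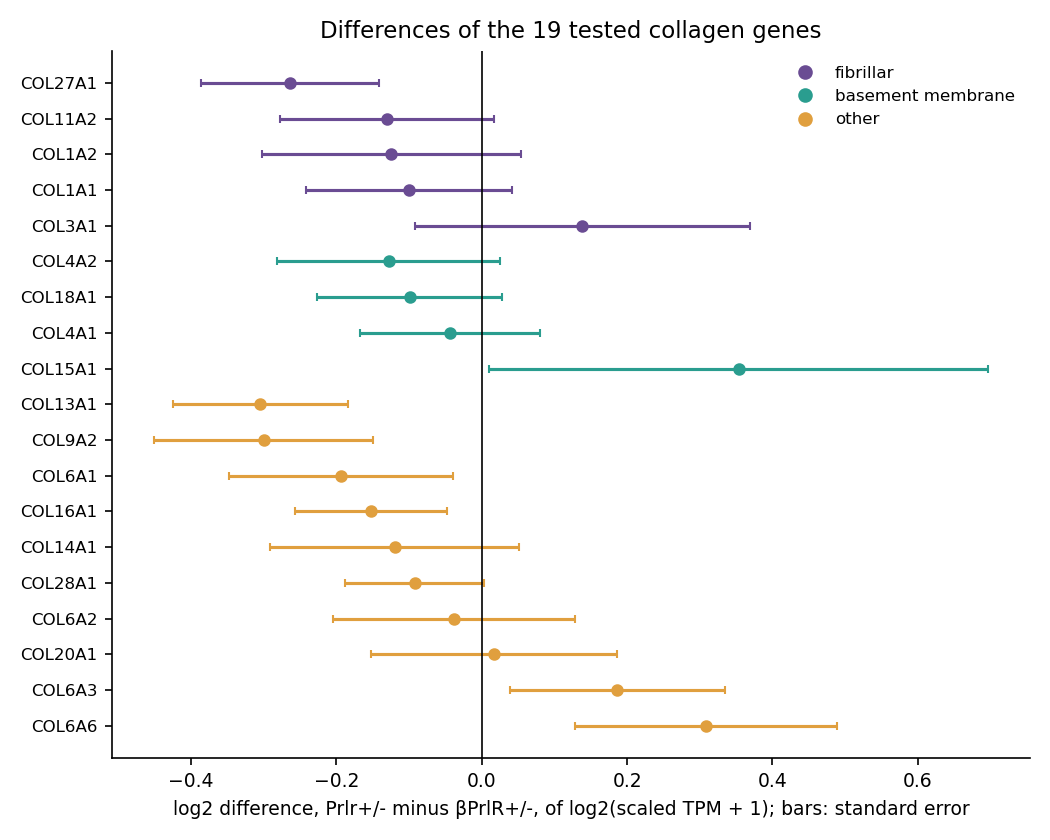
Log2 difference of each tested collagen gene, Prlr+/- minus βPrlR+/-, on the scale of log2(scaled TPM + 1), with its standard error, coloured by type. Differences run from −0.30 for COL13A1 to 0.35 for COL15A1, and 14 of 19 lie left of 0.

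Among the basement membrane genes, the main type IV chains did not differ between the groups beyond their spread. COL4A1 was 21.4, 15.7, 19.97 and 19.8 scaled TPM in βPrlR+/- mice and 16.2, 21.2 and 18.4 in Prlr+/- mice. Mean levels were 19.2 ± 2.43 (SD, n = 4) against 18.6 ± 2.50 (SD, n = 3), with a log2 difference of −0.04 with a standard error of 0.12 (limma, p = 0.731, and exact permutation test over the 35 splits of the mice, p = 0.714). The values of both groups were intermingled, and the sign turned when βPrlR+/- mouse 1 (0.0076) or Prlr+/- mouse 1 (0.05) was left out. COL4A2, the partner chain, was 12.8, 8.68, 13.2 and 12.5 in βPrlR+/- mice and 9.49, 12.4 and 9.98 in Prlr+/- mice (log2 difference −0.13, standard error 0.15, limma p = 0.431, exact permutation p = 0.457). Its lowest value was that of βPrlR+/- mouse 2, far below the other 3 of that group. Without that mouse the difference was −0.26, and it was not called.

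The multiplexins, which sit between basement membrane and interstitium, were lower. COL15A1 varied 4.38-fold between mice, with 4.10, 1.11, 3.09 and 1.5 in βPrlR+/- mice and 2.32, 4.87 and 2.64 in Prlr+/- mice (log2 difference 0.35, standard error 0.34). The 2 lowest values were those of βPrlR+/- mice and the highest that of a Prlr+/- mouse, with the groups overlapping between them. The difference was 0.10 without Prlr+/- mouse 2, 0.15 without βPrlR+/- mouse 2, 0.23 without βPrlR+/- mouse 4 and 0.57 without βPrlR+/- mouse 1, and it was called in none of these fits. COL18A1, the source of endostatin, was 0.820 ± 0.273 (SD, n = 4) and 0.687 ± 0.0824 (SD, n = 3), with overlapping groups. The minor type IV chains were not tested, with means of 0.364 for COL4A3, 0.242 for COL4A4, 0.158 for COL4A5 and 0.0175 for COL4A6. Chains 3 and 4 form the network of the kidney filter together with chain 5, and the groups overlapped for each of these genes.

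The fibrillar genes were at a few scaled TPM or less, and none of the 5 tested passed the test between the groups. COL1A1 and COL1A2 encode the chains of type I collagen, and COL3A1 encodes type III, its usual companion. COL1A2 was 2.51, 1.40, 2.79 and 1.81 in βPrlR+/- mice and 1.43, 2.21 and 1.88 in Prlr+/- mice. COL1A1 was 0.801, 0.327, 0.842 and 0.572 against 0.396, 0.698 and 0.461. COL3A1 was 2.09, 0.995, 1.67 and 1.24 against 1.06, 2.76 and 1.58. In all 3 genes the lowest value was that of βPrlR+/- mouse 2, and mice of both groups were high and low. Their log2 differences were −0.12, −0.10 and 0.14, with standard errors of 0.18, 0.14 and 0.23, and that of COL3A1 turned to −0.10 without Prlr+/- mouse 2 and was 0.34 without Prlr+/- mouse 1. With a mouse left out, COL1A2 ranged from −0.25 (without βPrlR+/- mouse 2) to −0.016 (without Prlr+/- mouse 1) and COL1A1 was −0.20 when βPrlR+/- mouse 2 was left out and −0.039 when βPrlR+/- mouse 3 was.

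COL27A1, a fibrillar collagen known from cartilage, had the smallest limma p of the fibrillar genes (0.066, adjusted p 0.9999), with 1.31 ± 0.211 (SD, n = 4) in βPrlR+/- and 0.930 ± 0.275 (SD, n = 3) in Prlr+/- mice. Its groups overlapped through Prlr+/- mouse 2, at 1.24. COL11A2, a chain of type XI collagen, was 0.835 ± 0.190 (SD, n = 4) and 0.690 ± 0.331 (SD, n = 3). The 6 fibrillar genes not tested had means of 0.0070 to 0.479, among them the 3 chains of type V collagen, which set the diameter of type I fibrils.

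Of the other types, the beaded filament collagen COL6A6 was the highest. Type VI collagen forms fine filaments next to basement membranes, and COL6A6 is one of the chains that can stand in for COL6A3. It was 8.36, 5.67, 11.1 and 7.43 in βPrlR+/- mice and 9.82, 10.5 and 9.90 in Prlr+/- mice. The 3 Prlr+/- mice lay close together, above 3 βPrlR+/- mice and below βPrlR+/- mouse 3. Mean levels were 8.13 ± 2.25 (SD, n = 4) against 10.1 ± 0.358 (SD, n = 3), with a log2 difference of 0.31 with a standard error of 0.18 (limma p = 0.128, adjusted p 0.9999, exact permutation p = 0.229). It was 0.17 without βPrlR+/- mouse 2 and 0.45 without βPrlR+/- mouse 3, and 0.18 with TPM as deposited, with 0 calls in each. The transcript NM_001102607 carried 85.4% to 92.3% of the gene in each mouse. The usual chains of type VI were lower, with means of 1.502 for COL6A3, 1.31 for COL6A1 and 0.991 for COL6A2, and all their groups overlapped.

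COL13A1, a transmembrane collagen of cell contacts that is best known from the neuromuscular junction, was the member with an unadjusted p under 0.05 on scaled TPM. It was 5.36, 6.78, 6.87 and 7.26 in βPrlR+/- mice and 4.33, 5.21 and 5.86 in Prlr+/- mice. The groups overlapped only through βPrlR+/- mouse 1, which lay below Prlr+/- mouse 3. Mean levels were 6.57 ± 0.831 (SD, n = 4) against 5.13 ± 0.770 (SD, n = 3), with a log2 difference of −0.30 with a standard error of 0.12 (limma p = 0.0378, adjusted p 0.9999, exact permutation p = 0.0857). Leaving out a mouse gave −0.39 to −0.21 with unadjusted limma p values of 0.0096 to 0.142. With 19 members tested, the share at this unadjusted threshold was near the 4.52% of all genes.

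The COL13A1 value is the sum over 24 listed transcripts, 15 of them above 0 in some mouse. NM_001304757 held 62.6% to 81.9% of the gene and was 3.36, 5.05, 4.68 and 5.21 in βPrlR+/- mice and 3.17, 4.26 and 4.37 in Prlr+/- mice, so its groups overlapped. The second transcript, NM_007731, was 1.54, 0.746, 1.36 and 1.47 in βPrlR+/- mice and 0.285, 0.442 and 0.470 in Prlr+/- mice. Every Prlr+/- mouse lay below every βPrlR+/- mouse (exact permutation test, p = 0.0571). Of the 20 collagen transcripts with a mean of at least 0.5 TPM, 2 had groups that did not overlap, this one and the main transcript of COL16A1, against 4.43% of the 28553 transcripts at that level. How reads were divided between near-identical transcripts rests on the estimate of the authors' tool.

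The FACIT collagens, which attach to the surface of fibrils, were led by COL9A2 (3.06 ± 0.729, SD, n = 4, against 2.28 ± 0.441, SD, n = 3, log2 difference −0.30, limma p = 0.0851, exact permutation p = 0.171, adjusted p 0.9999). Its highest value, 4.14, was that of βPrlR+/- mouse 1, without which the difference was −0.18. COL9A2 is a chain of type IX collagen, whose partner chains COL9A1 and COL9A3 had means of 0.0073 and 0.117. COL20A1, COL16A1 and COL14A1 had means of 1.19, 0.804 and 0.528, with log2 differences of 0.02, −0.15 and −0.12. The difference of COL20A1 turned to −0.19 without Prlr+/- mouse 2, and it was below 0 with TPM as deposited (−0.06) and with upper-quartile scaling (−0.0025). Without βPrlR+/- mouse 3, COL16A1 was at −0.099 and COL14A1 at −0.020. COL28A1, a von Willebrand domain collagen known from nerve, was the remaining tested gene (0.732 ± 0.135, SD, n = 4, against 0.623 ± 0.0897, SD, n = 3).

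Below the threshold of 0.5 TPM, the type VIII chains stood apart between the groups. Type VIII is a short-chain collagen of vessel walls and of the sheet under the corneal endothelium, built from COL8A1 and COL8A2. COL8A1 was 0.458, 0.346, 0.753 and 0.424 scaled TPM in βPrlR+/- mice and 0.299, 0.296 and 0.291 in Prlr+/- mice. COL8A2 was 0.399, 0.327, 0.486 and 0.439 in βPrlR+/- mice and 0.284, 0.230 and 0.219 in Prlr+/- mice. For both genes every Prlr+/- mouse lay below every βPrlR+/- mouse, also with TPM as deposited. The means were 40.4% lower for COL8A1 and 40.8% lower for COL8A2. COL8A1 had 1 listed transcript. For COL8A2 the groups were apart only in the sum of its 2 transcripts. The main one, NM_199473, held 77.1% to 100% of the gene, and its groups overlapped (exact permutation test, p = 0.0857). It was 0.252 in βPrlR+/- mouse 2 and 0.284 in Prlr+/- mouse 1. The other, XM_017320266, had a mean of 0.025. In the fit over all 27935 genes above 0 in some mouse, the adjusted limma p was 0.999 for COL8A1 and 0.718 for COL8A2, so neither passed.

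The groups did not overlap for 4 of the 25 members not tested, all 4 lower in Prlr+/- mice, against 4.82% of genes above 0 in either direction and 3.23% lower in Prlr+/- mice. The other 2 were COL11A1 and COL2A1, fibrillar chains of cartilage. COL11A1 was 0.0878, 0.0667, 0.118 and 0.0659 in βPrlR+/- mice and 0.0591, 0.0420 and 0.0633 in Prlr+/- mice. COL2A1 was 0.0191, 0.0429, 0.0314 and 0.0492 in βPrlR+/- mice, and 0.0081 and 0.0119 in Prlr+/- mice 2 and 3, with Prlr+/- mouse 1 listed at 0. At levels this low a value may stand for few reads, and the adjusted limma p was 0.999 for COL11A1 and 0.920 for COL2A1.

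**Figure D3:**
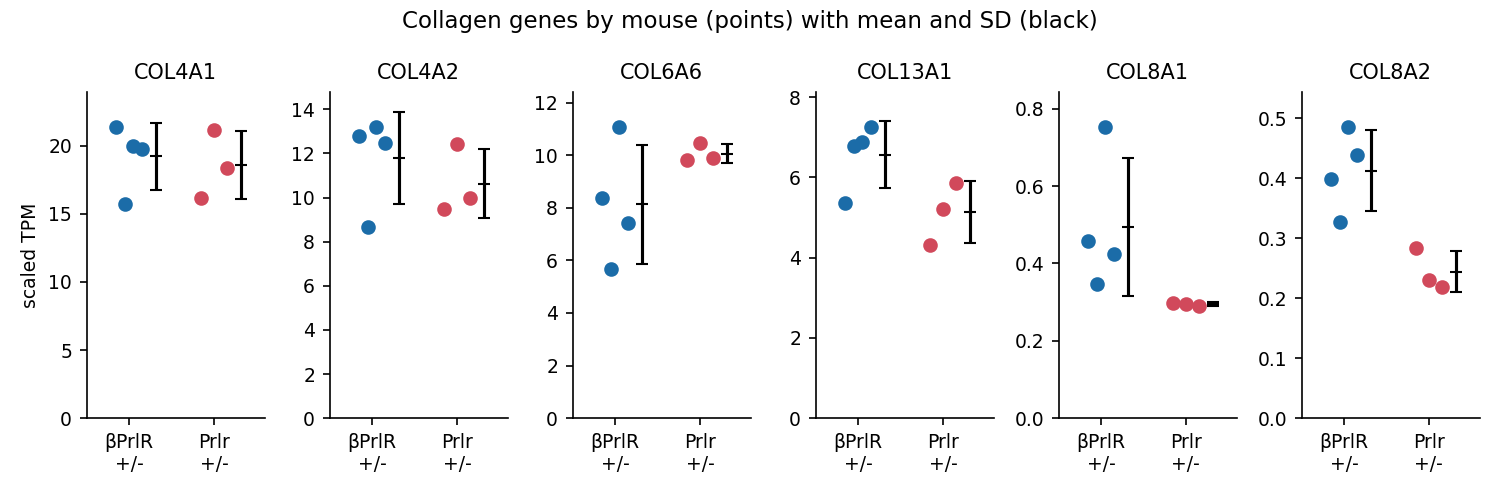
Scaled TPM by mouse of the 4 highest collagen genes and both type VIII chains, with the mean and SD of each group (n = 4 and n = 3), each panel on its own axis from 0. The groups overlap for COL4A1, COL4A2, COL6A6 and COL13A1 and are apart for COL8A1 (Prlr+/- mice at 0.291 to 0.299) and COL8A2 (0.219 to 0.284).

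The remaining 11 other-type genes not tested, apart from the type VIII and type IX chains already given, had overlapping groups. COL26A1 and COL7A1, the anchoring fibril collagen of skin, had means of 0.329 and 0.304. The transmembrane collagens COL25A1, COL23A1 and Col17a1 had means of 0.137, 0.0390 and 0.0076, and COL10A1, the collagen of growth plate cartilage, had a mean of 0.0165. The FACIT genes COL22A1, COL12A1 and COL19A1 were at 0.108, 0.101 and 0.0263, and the beaded filament genes Col6a4 and COL6A5 at 0.0347 and 0.0168.

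The ratios of chains of types I and IV varied less over the mice than the levels of either chain. COL4A1 to COL4A2 was 1.51 to 1.84, a 1.22-fold range, where COL4A1 varied 1.36-fold and COL4A2 1.52-fold, and COL1A1 to COL1A2 was 0.234 to 0.320, a 1.36-fold range against 2.57-fold for COL1A1. The type I protein holds more α1 than α2 chain. COL6A1 to COL6A2 was 1.04 to 1.84. COL6A3 to COL6A1 varied most, from 0.663 to 1.93, with 1.90 and 1.93 in Prlr+/- mice 1 and 3 and at most 1.119 in any βPrlR+/- mouse. Prlr+/- mouse 2, at 0.918, lay among the βPrlR+/- mice. Of these 4 ratios none passed a two-sided exact permutation test between the groups (p = 0.200, 0.629, 0.229 and 0.200, adjusted over the 4 ratios 0.305, 0.629, 0.305 and 0.305), and the smallest p that 35 splits allow is 0.0286. The ratio of COL5A1 to COL5A2 was 0.320 to 0.446 and that of COL8A1 to COL8A2 0.966 to 1.55, with no test since these genes were under the threshold. Both of these ratios, and that of COL6A1 to COL6A2, also varied less than either of their chains. That of COL6A3 to COL6A1 varied more than either chain.

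**Figure D4:**
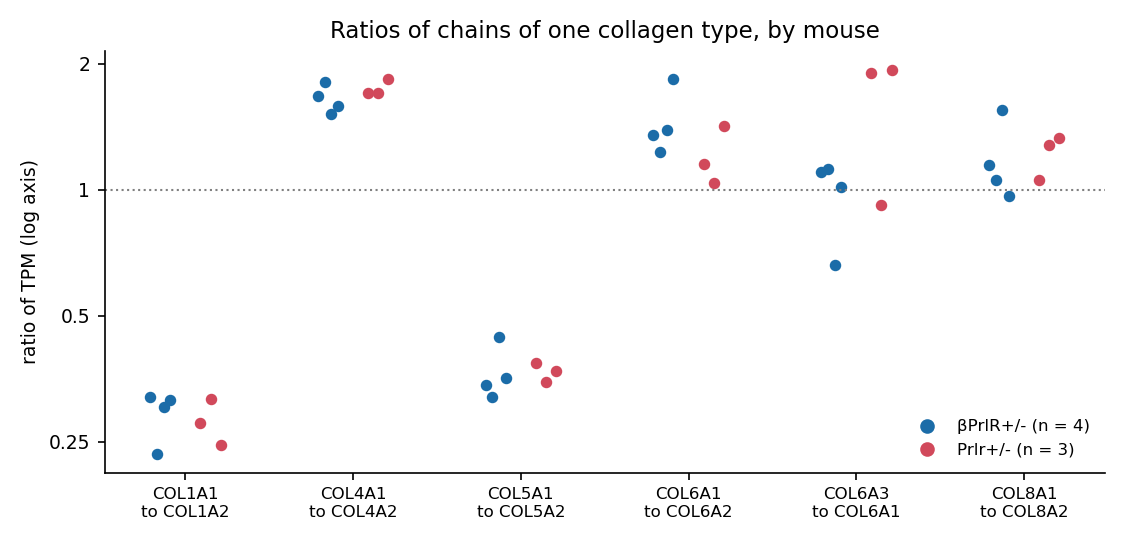
Ratio of the TPM of 2 chains of one collagen type in each mouse, on a log axis with a dotted line at 1. COL4A1 to COL4A2 stays between 1.51 and 1.84, and COL6A3 to COL6A1 has 2 Prlr+/- mice near 1.9.

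Across mice, many collagen genes were highest in the mice with the most RNA of digestive enzymes, which acinar and not endocrine cells make. The summed acinar markers were 14727, 1646, 14652 and 4887 scaled TPM for the 4 βPrlR+/- mice and 4581, 12491 and 6387 for the 3 Prlr+/- mice, in the same order. Of 8 markers on that list, 7 were in the table and 6 were tested, none of them called, and the groups overlapped (smallest limma p 0.741, PNLIP). The elastases CELA2A and CELA3B and the carboxypeptidase CPB1 were highest, with means of 2911, 1500 and 1258. The 3 highest mice were βPrlR+/- mice 1 and 3 and Prlr+/- mouse 2. The same 3 mice had the 3 highest values of 11 of 19 tested collagen genes (57.9%), against 5.05% of all genes tested, and of 6 of 25 members not tested. Of the tested fibrillar genes these were COL1A1, COL1A2 and COL3A1, of the basement membrane genes COL4A1, COL15A1 and COL18A1, and of the others COL6A1, COL6A2, COL14A1, COL20A1 and COL28A1. The fibrillar sum was 9.16 to 9.45 scaled TPM in these 3 mice and 4.89 to 6.57 in the other 4, and the basement membrane sum 38.5 to 40.0 and 26.6 to 35.2. This pattern was noticed after the values had been seen, and its part in the levels was not tested further. With the mean of the acinar list as a covariate, an alternative added after seeing the data, 0 of 19 members were called. In that covariate fit 2 of 19 (COL6A1 and COL6A6) had an unadjusted p under 0.05, against 4.91% of all genes tested. COL13A1 was no longer among them. Its log2 difference was −0.300 (standard error 0.127) with the covariate and −0.305 (standard error 0.121) without it. With the covariate 15 of 19 differences were below 0. The medians of the fibrillar, basement membrane and other types were −0.13, −0.09 and −0.12. Without the 3 mice, which leaves 2 per group, 11 of 19 were below 0, 0 were called, and the medians were −0.02, −0.0048 and −0.06. In that fit 5 of 19 members had an unadjusted p under 0.05, against 9.03% of all genes tested and 1 of 19 with all mice. These were COL15A1 (log2 difference 0.60), COL6A6 (0.53), COL6A3 (0.41), COL11A2 (−0.39) and COL27A1 (−0.29), with adjusted limma p values of 0.446 to 0.538, and the first 4 differed by over 1.5 times as much as with all mice.

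**Figure D5:**
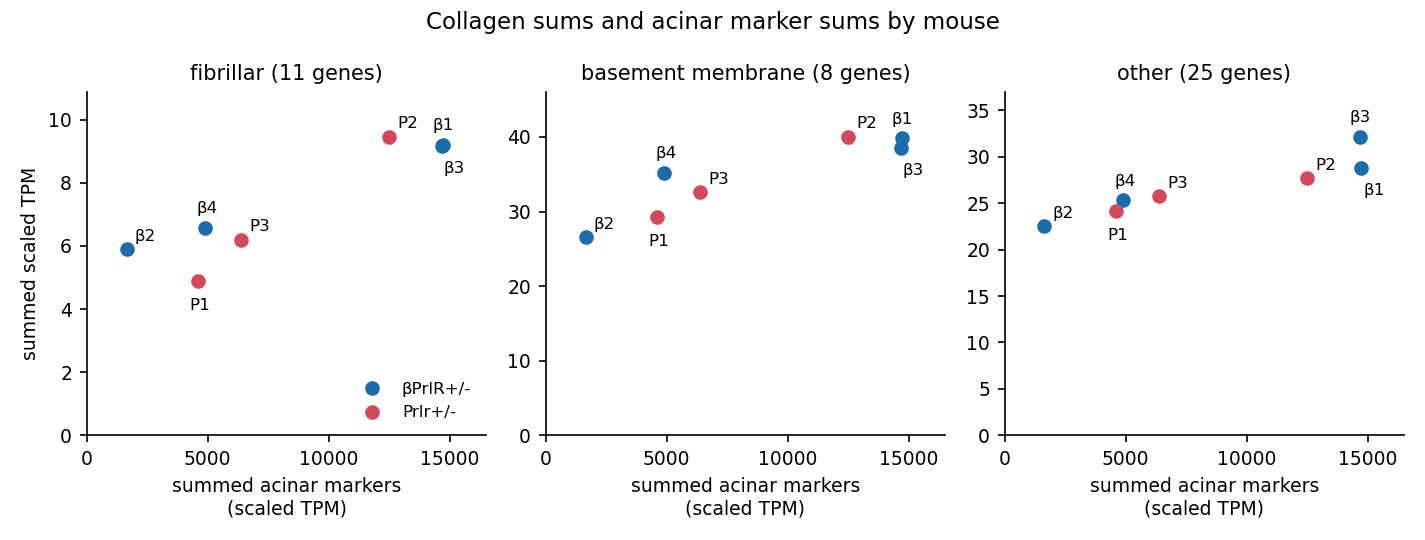
Summed scaled TPM of the fibrillar, basement membrane and other collagen genes in each mouse against the summed acinar markers (β1 to β4, βPrlR+/- mice; P1 to P3, Prlr+/- mice), all axes from 0. The 3 mice with the highest acinar sums (12491 to 14727) have the 3 highest sums of each type.

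The tested endothelial, pericyte and smooth muscle, and fibroblast markers had log2 differences below 0, as had most tested collagen genes, though none was called. All 12 endothelial markers had log2 differences below 0 (median −0.22), where 48.3% of all genes tested did. At an unadjusted limma p under 0.05 there were 6 of 12, against 4.52% of all genes tested, and 0 were called. Their sum was 209 to 248 scaled TPM in βPrlR+/- mice and 174 to 214 in Prlr+/- mice, which overlapped, and none was at 0. The groups did not overlap for 4 of the 12, PECAM1, CDH5, TIE1 and ESAM, against 4.95% of all genes tested. ESAM, an adhesion molecule of endothelial junctions, was 16.9 ± 0.670 (SD, n = 4) and 14.3 ± 0.465 (SD, n = 3) (limma p = 0.00399, exact permutation p = 0.0286, adjusted p 0.607). PLVAP was 88.2 ± 6.39 (SD, n = 4) and 72.7 ± 8.68 (SD, n = 3), EMCN 28.3 ± 6.27 and 27.0 ± 3.93, and the VEGF receptor KDR 22.9 ± 3.10 and 20.01 ± 2.26. The 9 tested pericyte and smooth muscle markers also lay below 0 (median −0.14, sums 47.4 to 60.8 and 36.2 to 51.4), as did the 3 tested fibroblast markers (median −0.20, sums 5.71 to 10.3 and 4.98 to 8.20). After RGS5, with the smallest limma p of its list (0.144), the highest pericyte and smooth muscle genes were NOTCH3 (2.38) and ACTA2 (2), and the highest fibroblast genes were PDGFRB (3.09) and DPEP1 (1.1). CD248, a fibroblast and pericyte surface protein, was 1.03 ± 0.0702 (SD, n = 4) and 0.768 ± 0.0561 (SD, n = 3), with groups apart (limma p = 0.0318, exact permutation p = 0.0286, adjusted p 0.9999). Their part in the collagen levels was not tested.

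Other listed cell types were mixed. The 6 tested Schwann cell and glia markers had a median of −0.22, with S100B lowest in p (limma p = 0.0225, exact permutation p = 0.0286, adjusted p 0.962) and the 1 member with groups apart, against 4.95% of all genes tested. GFRA3, a receptor of the GDNF family, had a mean of 4.39 scaled TPM. The 7 tested macrophage markers had a median of 0.02, and the complement genes C1QA, C1QB and C1QC led them with means of 38.6, 11.7 and 8.57 (C1QA had the smallest limma p, 0.181). The 4 tested duct markers had a median of 0.05, with means of 226 for KRT7 and 17.5 for SPP1 (smallest limma p 0.184, KRT19). The 8 β-cell markers all lay above 0 (median 0.34), where 48.3% of all genes tested lay below 0. INS, Ins1 and IAPP (amyloid polypeptide) overlapped between the groups at means of 409102, 129283 and 39150. MAFA, a β-cell transcription factor, had the smallest p of them (limma p = 0.0445, exact permutation p = 0.114, adjusted p 0.9999). No gene on these lists was called, and at an unadjusted limma p under 0.05 (4.52% of all genes tested) there were 1 Schwann cell and glia marker, 1 β-cell marker and 0 of the macrophage, duct and acinar markers.

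The summed genes that fold and export procollagen were at 629 to 687 scaled TPM, above the collagen sum in every mouse, with P4HB holding the largest part and some members, such as PLOD2, below the main collagen genes. Of the 23 listed genes 20 were in the table and 19 tested. Of these 7 lay below and 12 above 0, where 48.3% of all genes tested lay below 0. Their median was 0.03, with 0 called and 1 of 19 at an unadjusted limma p under 0.05, near the 4.52% of all genes tested. P4HB, the disulfide isomerase subunit of prolyl hydroxylase, was at 361 ± 9.70 (SD, n = 4) and 364 ± 12.9 (SD, n = 3) scaled TPM. PPIB, a proline isomerase of the endoplasmic reticulum, was at 88.7 ± 8.05 and 92.6 ± 8.003, and MIA3 (TANGO1), which loads procollagen into transport carriers, at 63.9 ± 1.82 and 68.2 ± 1.57. PLOD2, the lysyl hydroxylase of telopeptides, was 0.885 ± 0.102 and 0.611 ± 0.126 (limma p = 0.0413, exact permutation p = 0.0857, adjusted p 0.9999). MIA3 was the 1 of 19 with groups that did not overlap, near the 4.95% of all genes tested.

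Outside the cell, 4 of 14 genes that cut or crosslink collagen were tested, with a median of 0.06, 0 called and 1 of 4 (LOXL2) at an unadjusted limma p under 0.05, against 4.52% of all genes tested. BMP1, the procollagen C-proteinase, was at 53.2 ± 4.40 (SD, n = 4) and 57.0 ± 8.60 (SD, n = 3). LOXL2, a lysyl oxidase that crosslinks type IV collagen, was 7.48, 7.18, 7.34 and 7.20 in βPrlR+/- mice and 7.86, 8.68 and 7.93 in Prlr+/- mice. Every Prlr+/- mouse was above every βPrlR+/- mouse, as in either direction for 4.95% of all genes tested (log2 difference 0.14, limma p = 0.0446, exact permutation p = 0.0286, adjusted p 0.9999). PXDN, which forms the sulfilimine bonds of type IV collagen, was 3.14 ± 0.271 and 3.20 ± 0.184.

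The matrix partners of collagen were not called either. Of all genes tested, 0.0674% were called, 4.52% had an unadjusted limma p under 0.05 and 48.3% lay below 0. Of 15 basement membrane partners 11 were tested, 6 below and 5 above 0, with a median of −0.10, 0 called and 0 at an unadjusted limma p under 0.05. The laminin chain LAMC1 and the linker NID1 had means of 5.53 and 4.30, and LAMB2 had the smallest limma p (0.121). In 9 of the 11 the same 3 mice of high acinar sum were highest, against 5.05% of all genes tested. The 7 tested fibril-associated genes all lay below 0 (median −0.11, 0 called, 0 at an unadjusted p under 0.05), with means of 27.2 for SPARC, which binds collagen on its way out of the cell, 5.85 for the proteoglycan DCN and 5.45 for THBS1, and BGN had the smallest limma p (0.153). Of 10 receptor genes 3 were tested, none of them called. DDR1, the collagen-binding tyrosine kinase, was at 75.9 ± 3.97 (SD, n = 4) and 76.0 ± 10.2 (SD, n = 3), the integrin chain ITGB1 at 56.2 ± 1.39 and 55.0 ± 1.98, and ITGA1, with the smallest limma p of the 3 (0.186), at 1.40 ± 0.302 and 1.13 ± 0.163.

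Of 12 genes of collagen breakdown, 4 were tested, all below 0 (median −0.20), where 48.3% of all genes tested were. Of the 4 genes, 0 were called, and 2 had an unadjusted limma p under 0.05 and groups apart, against 4.52% and 4.95% of all genes tested. The 2 highest are inhibitors of metalloproteinases, not proteases. TIMP3, which is bound to the matrix, was 33.2, 41.8, 49.3 and 42.2 scaled TPM in βPrlR+/- mice and 29.0, 32.2 and 30.0 in Prlr+/- mice. TIMP2 was 12.0, 12.2, 11.9 and 10.3 in βPrlR+/- mice and 8.74, 8.44 and 10.2 in Prlr+/- mice. In both genes all Prlr+/- mice lay below all βPrlR+/- mice, narrowly at the nearest pair. The log2 differences were −0.43 for TIMP3 (standard error 0.12, limma p = 0.00973, exact permutation p = 0.0571, adjusted p 0.807) and −0.32 for TIMP2 (standard error 0.09, limma p = 0.00747, exact permutation p = 0.0571, adjusted p 0.756). The membrane-bound proteases MMP15 and MMP14 had means of 2.77 and 1.77.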

How the data were processed

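Poly(A) RNA of hand-picked islets, cultured overnight according to the methods, was made into strand-specific libraries, 1 per mouse. The authors assigned reads to mouse RefSeq transcripts with kallisto (0.42.4, per the submitters' processing notes). The methods name FPKM, but the deposited columns have equal sums, as TPM do, and were handled as TPM. The methods date that transcript database and state the reads per library, but no genome build is given in the sources used here. TPM does not keep the reads behind a value, and single-mouse tables were not used.

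Each TPM column was scaled by the median of its ratios to the geometric mean of all mice, and genes averaging 0.5 TPM or more were tested as log2(scaled TPM + 1) with limma 3.58.1 (trend, R 4.3.3), Benjamini-Hochberg adjustment over 14840 genes and a threshold of 0.05. The labels name no batch. Exact permutation tests are two-sided over the 35 splits of 4 and 3 mice. Python 3.11.15, numpy 2.4.6, pandas 2.3.3, scipy 1.17.1 and matplotlib 3.10.9 were used for the rest.

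The members and lists were chosen with earlier results of these data known. Values in every mouse were to be given for collagen genes averaging 5 TPM or more, with an unadjusted p under 0.05 or groups that do not overlap. Of each other list the 3 highest genes and the one with the smallest p were named. Other genes named were chosen after their values were seen. Some genes that this rule would name are not reported here. Alternatives were unscaled TPM, a scaling on the upper quartile, 0.1 as pseudocount, the fit over all genes above 0, leaving out each mouse and, added after seeing the data, the acinar list as a covariate and leaving out the 3 mice with the highest acinar sum.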

Additional observations from a re-analysis of the deposited data

Results flagged for a closer look

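In βPrlR+/- islets, COL4A2 was 8.68 scaled TPM in mouse 2 and 12.5 to 13.2 in the other 3 mice, so that the gap was 0.838 of the group's range, beyond Dixon's limit for 4 values. Of 31 sets of values examined this was the 1 beyond the limit, and chance alone gives about 1 in 20. The same mouse had the lowest acinar sum of the 7, 1646 scaled TPM, and the part of that in its COL4A2 level was not tested.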

How the results depend on the processing

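No paired analysis was possible because the labels give each mouse a number of its own and the groups share none. Over 13 alternatives no tested collagen gene and no gene of the other lists was called, and the smallest adjusted p of a collagen gene was 0.446. The medians of the 3 types stayed below 0, from −0.22 to −0.02 for fibrillar, −0.17 to −0.0048 for basement membrane and −0.22 to −0.03 for other genes. The number of all genes called moved from 10 to 18 with a pseudocount of 0.1, 4 over all genes above 0, 6 with the acinar covariate, 18 without the 3 mice of highest acinar sum and 2 to 12 when each mouse was left out. Of 247 alternative differences of single collagen genes 228 kept their sign and 19 reversed, in 7 of the 19 genes, and 12 genes had none. Without the 3 mice of highest acinar sum COL14A1 turned to 0.042, COL18A1 to 0.019, COL1A2 to 0.026, COL6A2 to 0.032 and COL20A1 to −0.10. COL20A1 was also reversed with unscaled TPM (−0.057), upper-quartile factors (−0.0025), a pseudocount of 0.1 (−0.0017) and the acinar covariate (−0.00016). With a mouse left out, COL20A1 ranged from −0.19 to 0.14, COL3A1 from −0.10 to 0.34, COL4A1 from −0.14 to 0.046 and COL6A2 from −0.18 to 0.036. The log2 ratio of COL1A1 to COL1A2 between the groups turned from −0.064 to 0.024 with a pseudocount of 1 and ranged from −0.17 to 0.026 without each mouse. The causes of these reversals were not tested. TPM does not keep the reads behind a value, so no counting interval is given for members under 0.5 TPM.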
